A study of Rattus norvegicus with 15 samples.

Results

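The genes described here belong to the families that make up the machinery for releasing synaptic vesicles. The rule that picked them reads gene symbols: synaptotagmins (*Syt*), syntaxins (*Stx*), *Vamp* and *Snap* genes, *Stxbp* genes, *Rab3* and *Rab27* genes, *Rims*, *Unc13*, complexins (*Cplx*), synapsins (*Syn*), *Sv2*, *Syp* and *Sgip1*. Of the 67 genes, 15 are SNAREs of other membranes and 2 act in endocytosis. The array held 102 probe sets with exactly one of these symbols, for 67 genes, of 31099 probe sets and 14218 genes with a single symbol in all. Among them 40 had 1 probe set, 19 had 2 and 8 had 3. The probe set with the highest mean over all arrays, called the brightest here, stands for its gene, and the remaining 35 probe sets were set against it. Genes with a symbol of this form but no probe set, such as *Cplx4*, are not analysed here.

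RNA of whole retinas from adult male Long Evans rats, aged 2 to 3 months, was hybridised to 15 Affymetrix rat arrays, 3 replicas for each of 5 conditions. Darkness covered 3 conditions, with retinas taken at 7 am after a night without light (0 ZT dark), at 10 am (3 ZT dark) and at 1 pm (6 ZT dark). In the other two, rats were kept under 1000 lux from 7 am and retinas were taken at 10 am (3 ZT light) or 1 pm (6 ZT light). For 6 ZT light the sample titles state 6 hours under light while the source labels state 3, and the titles were followed. How many animals contributed to an array is not given in the sources used here, so p-values reflect the variation among these arrays alone, and that variation can be technical.

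A synaptic vesicle docks at the active zone through Rab3 or Rab27 and the RIM scaffold proteins, and is primed by Munc13 proteins (*Unc13* genes), while syntaxin binders (*Stxbp* genes) act on the syntaxins. Fusion is driven by a SNARE complex of a syntaxin and a SNAP25 family protein on the plasma membrane with a synaptobrevin (*Vamp*) on the vesicle, held back and promoted by complexins and set off when synaptotagmin binds calcium. Photoreceptors and bipolar cells release glutamate continuously at ribbon synapses, which use syntaxin 3 and complexins 3 and 4. Amacrine and ganglion cells form conventional synapses.

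Photoreceptor, bipolar, amacrine, Müller glia and ganglion cell markers were all present in the RNA, with log2 values from 15.14 to 15.55 for *Sag* (arrestin of rods) and from 9.56 to 11.39 for *Grm6* (the glutamate receptor of ON bipolar cells). Array medians lay between 8.28 and 8.32 in replica 1, 8.58 and 8.68 in replica 2 and 8.75 and 8.81 in replica 3, so levels are compared within a replica number. A pair of arrays stood apart in the difference between the 3′ and 5′ control probe sets of *Actb*, a sign of RNA or labelling quality, at 2.10 for 0 ZT dark replica 1 and 2.40 for 3 ZT light replica 2, against 0.71 to 1.37 on the others. Over the release genes, the residual spread of the fit was largest on 3 ZT light replica 2 (0.298 log2 units, root mean square) and ran from 0.103 to 0.243 on the other arrays. In 40 of the 67 genes at least 1 pair of arrays with the same replica number held exactly equal values, which gives ratios of 1.00.

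The largest fitted difference between light and darkness at 3 ZT was a higher value of *Rab27b* in light, which did not pass the adjusted test. None of the 67 genes passed the test across all probe sets in 3 ZT light against 3 ZT dark (limma, adjusted p under 0.05), where 1 of 14217 genes was called lower (0.00703%) and none higher (0.0%). At an unadjusted p under 0.05, 3 release genes were higher, *Rab27b*, *Syt6* and *Stx17*, beside 1.32% of genes, and 2 were lower, *Unc13d* and *Stx12*, beside 3.55%. The members' median log2 fold change was −0.016, and that of the genes as a whole −0.011. A member counted as up-regulated when its ratio to the array of the same number was above 1.6 in all 3 replicas, and as down-regulated below 0.7. By this rule *Rab27b* was the only gene of the 14217 to pass upward (0.00703%), and no member passed downward, beside 0.0422% of genes. Fitted values were above 0 for 29 members and for 46.5% of genes. Without 3 ZT light replica 2, 39 members were above 0 and the median was 0.014, and without 3 ZT light replica 3 the median was −0.087. For fits with an array left out, here and below, the shares of all genes are not given.

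After 6 hours, fitted values were below 0 in light for the complexins and most synaptotagmins and above 0 for *Snap23*, *Sgip1* and *Rab27a*, none past the adjusted test. In limma 0 members passed, and so did 0 of all genes in either direction (0.0%). *Snap23*, *Sgip1*, *Rab27a*, *Stxbp5*, *Vamp3* and *Stx16* were higher at an unadjusted p under 0.05, which is 6 of 67 beside 4.85% of genes. *Syt3*, *Cplx2* and *Cplx1* were lower, 3 of 67 beside 2.86%. Without 3 ZT light replica 2 in the fit the counts were 8 and 5. That array is in neither group, so leaving it out changed the estimate of spread for all genes. The percentages given belong to the fit of all arrays. The fitted value was above 0 for 21 members and for 50.2% of genes, and the median was −0.056, against 0.001 for the genes as a whole. In 18 members the ratio was below 1 in all 3 replicas, and 13.4% of genes did so. No member passed the ratio rule in this comparison, beside 0.0492% of genes upward and 0.0774% downward.

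In darkness, the 10 am retinas differed little from those at 7 am. In limma 0 members passed the adjusted test in 3 ZT dark against 0 ZT dark (0.0% of genes in either direction). Only *Sgip1* had an unadjusted p under 0.05 among the members, on the higher side (0.352% of genes), while none did on the lower side (1.22%). No member passed the ratio rule (0.0% of genes upward and 0.0211% downward), and 29 members and 45.9% of genes had fitted values above 0. Without 0 ZT dark replica 1 the counts at an unadjusted p under 0.05 were 0 higher and 1 lower, with 21 members above 0, and without 3 ZT light replica 2 they were 1 and 1. At 1 pm, again 0 members and 0.0% of genes passed the adjusted test in 6 ZT dark against 0 ZT dark. *Syt9*, *Syt1*, *Syt11*, *Sgip1* and *Rims3* were higher at an unadjusted p under 0.05, 5 of 67 beside 2.02% of genes, and *Snap23*, *Vamp3*, *Stx8* and *Rab27a* were lower, 4 of 67 beside 6.04%. These counts were 10 and 6 without 3 ZT light replica 2, and 2 and 5 without 0 ZT dark replica 1. The first of these arrays is in neither group, so leaving it out changed the estimate of spread for all genes. No share of all genes is given for fits without an array, so the change is no result about the members. Here 41 members had a fitted value above 0 and the median was 0.046, against 47.4% of all genes above 0 and a median of −0.009. *Syt1* passed the ratio rule upward, as did 0.0492% of genes, and no member passed downward (0.211%).

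Both light conditions were also set against the same 0 ZT dark arrays, which they share with the dark comparisons. In 3 ZT light against 0 ZT dark, 0 members passed the adjusted test (0.0% of genes higher and 0.00703% lower). At an unadjusted p under 0.05, *Rab27b*, *Sgip1* and *Syt6* were higher (3 members, beside 2.12% of genes) and *Rab3b*, *Unc13d*, *Vamp3* and *Stx1a* lower (4 members, beside 6.87%). Without 3 ZT light replica 2 the counts were 7 and 3, and 31 members were above 0. *Rab27b* passed the ratio rule upward, as did 0.0281% of genes, and no member passed downward (0.134%). Fitted values above 0 were found for 24 members and 43.0% of genes. For 6 ZT light against 0 ZT dark, 0 members and 0.0% of genes passed the adjusted test. *Sgip1*, *Syt1*, *Rims2*, *Unc13b* and *Stxbp5* were higher at an unadjusted p under 0.05 (5 members, beside 2.88% of genes), *Stx8* was lower (1 member, beside 3.13%), and *Unc13b* passed the ratio rule upward, as did 0.0352% of genes, with no member downward (0.0844%). Fitted values above 0 were found for 31 members and 43.6% of genes. The counts at an unadjusted p under 0.05 were 7 and 3 without 3 ZT light replica 2, and 4 and 2 without 0 ZT dark replica 1. As above, counts without an array have no share of all genes beside them. The heat map of all members shows that the largest fitted values in each comparison sat in few genes and that most of the family stayed near 0.

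**Figure D1:**
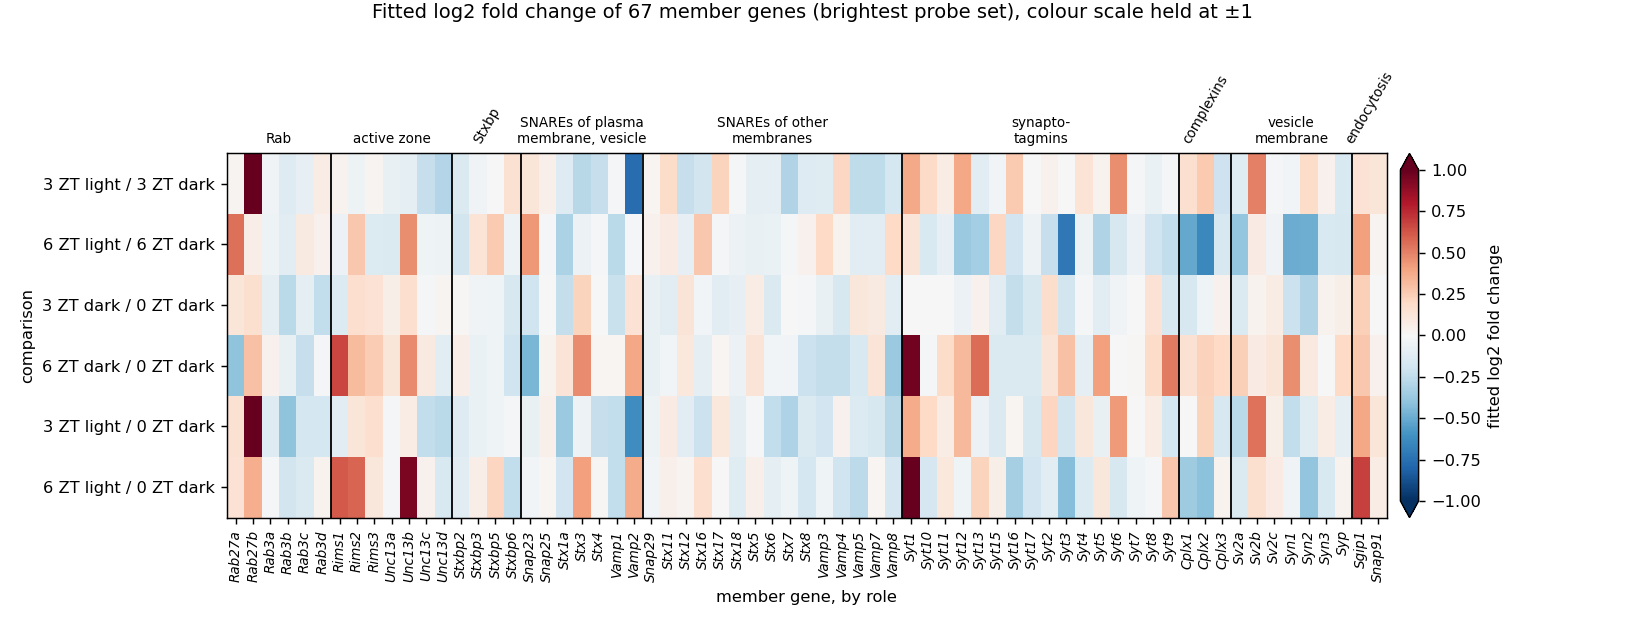
Fitted log2 fold change (colour, held at −1 and 1) of the 67 member genes by their brightest probe set (columns, grouped by role) in 6 comparisons (rows, the first condition over the second). Red marks a higher and blue a lower fitted value; *Rab27b* is deep red in both comparisons of 3 ZT light, *Syt1* is deep red in both 6 ZT comparisons with 0 ZT dark, and the complexin columns are blue in 6 ZT light against 6 ZT dark. No cell of the map passed the adjusted test.

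Among the small GTPases, *Rab27b* gave the largest fitted difference of any member. Rab27 proteins tether secretory granules and vesicles before fusion. Its log2 values were 7.16, 6.68 and 10.00 in replicas 1 to 3 of 0 ZT dark, 7.16, 6.82 and 10.34 in 3 ZT dark, and 9.25, 8.41 and 11.20 in 3 ZT light. They were 7.05, 7.42 and 10.24 in 6 ZT dark, with 7.04, 7.74 and 10.14 under light at that hour. The third replica was high in every condition, so the groups overlapped, while within each replica number the 3 ZT light array was the highest of the 5. Against 3 ZT dark the ratios were 4.26, 3.02 and 1.81, with a fitted log2 fold change of 1.51 (SE 0.28, n = 3) and a limma adjusted p of 0.895. Against 0 ZT dark the ratios were 4.26, 3.34 and 2.30 (log2 fold change 1.68, SE 0.28, adjusted p 0.248). At 6 ZT the light effect on *Rab27b* was 0.07 (SE 0.28), and the difference between the light effects at 6 and 3 ZT was −1.44 (SE 0.39), with an unadjusted p of 0.00394 and an adjusted p of 0.776. The dimmer probe set of the gene gave the same direction and a smaller size, with a log2 fold change of 0.43 (SE 0.12) in 3 ZT light against 3 ZT dark and ratios of 1.30, 1.07 and 1.77.

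*Rab27a*, which has the same tethering role, had its lowest values in 6 ZT dark, at 9.21, 9.53 and 9.47. Light at that hour gave 10.03, 9.78 and 10.05, without overlap, and the ratios were 1.77, 1.19 and 1.495. The fitted log2 fold change was 0.55 (SE 0.16), with an unadjusted p of 0.00636 and an adjusted p of 0.508. Against 0 ZT dark (9.76, 9.61 and 10.05), 6 ZT dark was lower by a fitted −0.40 (SE 0.16, adjusted p 0.544), but a dimmer probe set of *Rab27a* was higher in all 3 replicas there (0.20, SE 0.41). Of the Rab3 proteins, which sit on synaptic vesicles and bind RIM, *Rab3a* had fitted values between −0.13 and 0.05 in the 6 comparisons (SE 0.09). Its second probe set was at 10.07 on 3 ZT light replica 2 and between 11.25 and 13.07 on the other arrays. That probe set gave −0.64 in 3 ZT light against 3 ZT dark and 0.53 in 6 ZT dark against 0 ZT dark (SE 0.45, adjusted p 0.895 and 0.744). *Rab3b* was at 11.69, 11.70 and 12.16 in 0 ZT dark and 11.39, 11.22 and 11.73 in 3 ZT light, a log2 fold change of −0.40 (SE 0.13, adjusted p 0.561) with partial overlap between the groups.

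**Figure D2:**
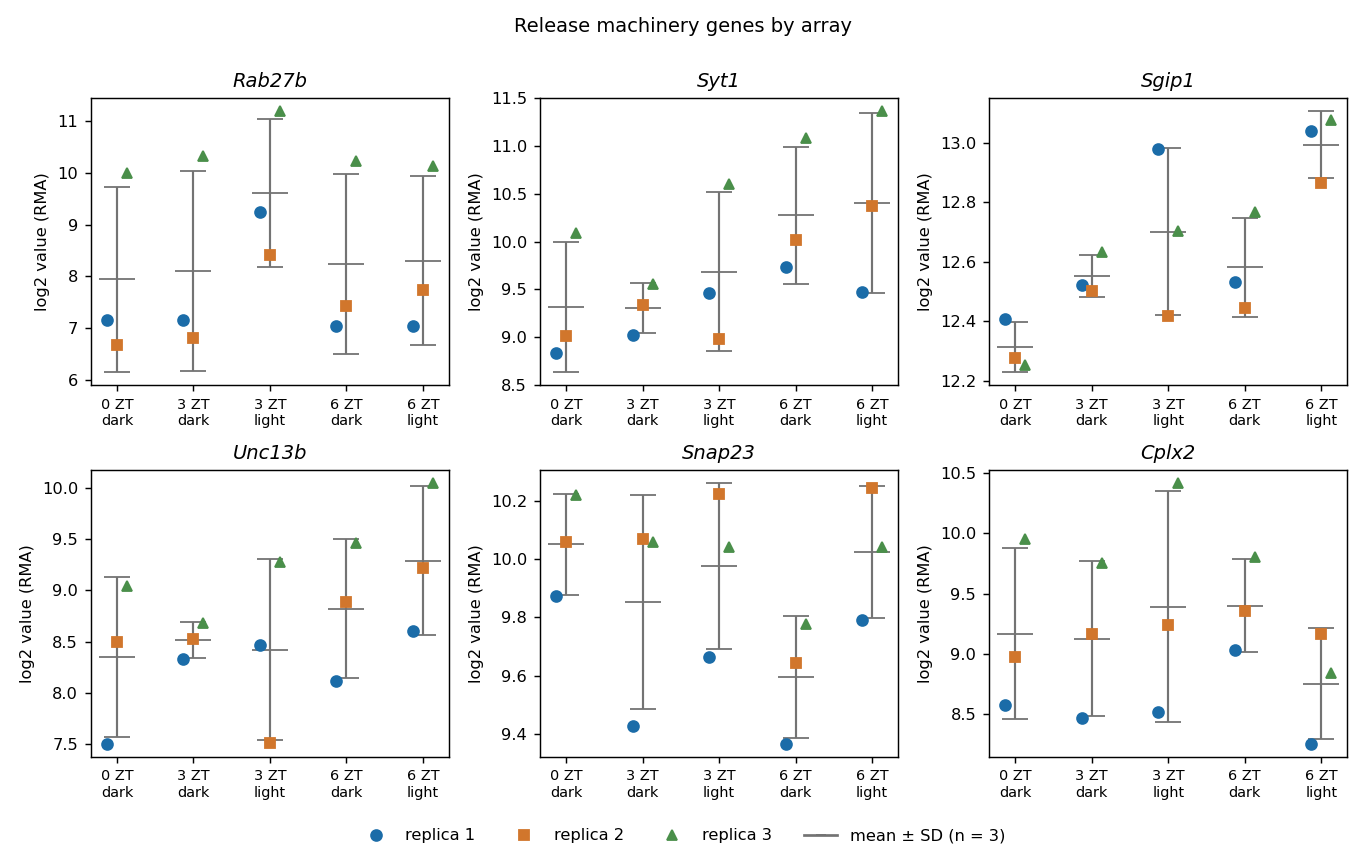
Deposited log2 values of 6 member genes (brightest probe set) on the 15 arrays, by condition; symbols mark replicas 1 to 3 and grey bars the mean ± SD of 3 arrays. Replica 3 of *Rab27b* lies near 10 to 11 in every condition and replicas 1 and 2 near 7 outside 3 ZT light, while the 3 *Sgip1* values of 6 ZT light lie above all those of 0 ZT dark and 6 ZT dark.

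In the active zone group, *Unc13b* and *Rims2* had their highest mean values after 6 hours of light. *Unc13b* codes for Munc13-2, a priming factor present at retinal ribbon synapses, and *Rims2* for RIM2, a scaffold that ties vesicles to calcium channels. *Unc13b* was at 7.51, 8.49 and 9.05 in 0 ZT dark, 8.12, 8.88 and 9.46 in 6 ZT dark, and 8.60, 9.21 and 10.04 in 6 ZT light. The groups overlapped, but in each replica number 6 ZT light was the highest of the 5 arrays. The ratios to 0 ZT dark were 2.13, 1.65 and 2.00, and the fitted log2 fold change was 0.94 (SE 0.32, adjusted p 0.660). Against 6 ZT dark it was 0.46 (SE 0.32, adjusted p 0.685).

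*Rims2* values were 10.25, 10.11 and 10.09 in 0 ZT dark, 10.43, 10.45 and 10.52 in 6 ZT dark, and 10.56, 10.77 and 10.87 in 6 ZT light, 3 groups that did not overlap. At 3 ZT they were 10.20, 10.35 and 10.415 in darkness and 10.65, 9.72 and 10.44 in light. In replica 1 the 3 ZT light array was thus above the 6 ZT light array. Under light at 6 ZT the fitted difference was 0.58 (SE 0.18, adjusted p 0.572) against 0 ZT dark and 0.27 (SE 0.18, adjusted p 0.673) against 6 ZT dark. For *Rims1* (RIM1), the member with the largest residual spread (SD 0.551, where the median of the members was 0.176), the ratios of 6 ZT dark to 0 ZT dark were 1.03, 1.94 and 2.01, and the fitted value was 0.67 (SE 0.40, adjusted p 0.647). *Rims3*, a short RIM form, was higher in 6 ZT dark by 0.25 (SE 0.11, adjusted p 0.570), and by 0.125 without 0 ZT dark replica 1. *Unc13d*, the Munc13 form of granule secretion in blood cells, had ratios of 0.83, 0.77 and 0.86 in 3 ZT light against 3 ZT dark (−0.30, SE 0.08, adjusted p 0.895). *Unc13a* and *Unc13c* had no unadjusted p under 0.05 in any of the 6 comparisons.

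Among the *Stxbp* genes, *Stxbp5* codes for tomosyn, which binds syntaxin and holds back SNARE assembly. It was at 11.30, 11.59 and 11.72 in 6 ZT dark and 11.47, 11.98 and 11.93 in 6 ZT light, with overlap between groups and ratios of 1.12, 1.31 and 1.16. The fitted log2 fold change was 0.26 (SE 0.09, adjusted p 0.524), and one of its dimmer probe sets gave 0.22 with the same direction in all 3 replicas. *Stxbp2*, *Stxbp3* and *Stxbp6* had no unadjusted p under 0.05 in these comparisons.

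*Snap25*, the plasma membrane SNARE of neurons, varied between 14.44 and 14.90 over all arrays, and its light effect was 0.05 (95% confidence interval −0.09 to 0.19) at 3 ZT and −0.02 (−0.16 to 0.12) at 6 ZT. *Vamp2*, the synaptobrevin of most synapses, was at 10.68 on 3 ZT light replica 2 and between 11.92 and 13.22 on the other arrays, and the ratios of 3 ZT light to 3 ZT dark were 0.74, 0.29 and 0.96 (log2 fold change −0.76, SE 0.38, adjusted p 0.895). *Stx3*, the syntaxin of ribbon synapses, was also lowest on that array (8.49, against 9.21 to 10.94). Its brightest probe set gave 0.47 (SE 0.33) in 6 ZT dark against 0 ZT dark and the dimmer one −0.27 (SE 0.14), in opposite directions in all 3 replicas. *Stx1a*, the syntaxin of conventional synapses, had ratios of 0.79, 0.78 and 0.85 in 6 ZT light against 6 ZT dark (−0.32, SE 0.16, adjusted p 0.604), with a dimmer probe set at −0.37 and lower in all 3 replicas. *Vamp1*, a synaptobrevin of some retinal synapses, had a brightest probe set at −0.27 there and a dimmer one at −0.42 (SE 0.31, adjusted p 0.697), both lower in all 3 replicas. In replica 3 the brightest was at 11.13 in darkness and 11.12 in light. The dimmest of its probe sets gave −0.15 and was not lower in every replica.

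*Snap23*, a form of SNAP25 found in many tissues, had the lowest p of the members in the comparison of light with darkness at 6 ZT. Its log2 values were 9.87, 10.06 and 10.22 in 0 ZT dark, 9.37, 9.64 and 9.78 in 6 ZT dark, and 9.79, 10.24 and 10.04 in 6 ZT light. The 6 ZT dark arrays lay below all those of 0 ZT dark and 6 ZT light. The log2 fold change of 6 ZT dark against 0 ZT dark was −0.46 (SE 0.10, adjusted p 0.457) and that of 6 ZT light against 6 ZT dark 0.43 (SE 0.10, adjusted p 0.440). These comparisons share the 6 ZT dark arrays. A dimmer probe set gave −0.18 (SE 0.08) and 0.22, each in the same direction in all 3 replicas.

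Among the SNAREs of other membranes, *Vamp3* (cellubrevin, of recycling endosomes) was at 11.85, 12.15 and 12.00 in 0 ZT dark, 11.63, 11.89 and 11.75 in 6 ZT dark and 11.93, 12.10 and 11.85 in 6 ZT light. Its fitted values were −0.24 (SE 0.07, adjusted p 0.495) for 6 ZT dark against 0 ZT dark and 0.20 (SE 0.07, adjusted p 0.534) for light at 6 ZT. *Stx8* and *Vamp8*, both of endosomes, were lower in 6 ZT dark than in 0 ZT dark by fitted values of −0.22 (SE 0.08) and −0.37 (SE 0.18), with adjusted p of 0.523 and 0.583. Of the 15 genes in this group, 11 had fitted values below 0 in 3 ZT light against 3 ZT dark (median −0.122) and 8 in 6 ZT light against 6 ZT dark (median −0.018). Of all genes, 46.5% and 50.2% were above 0. The mean log2 level of the 15 in replicas 1 to 3 was 10.402, 10.444 and 10.746 in 3 ZT light. In 3 ZT dark it was 10.428, 10.694 and 10.712. The largest fall was in replica 2, whose light array had the high *Actb* difference, and replica 3 was higher in light.

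Of the synaptotagmins, *Syt1* differed most. Synaptotagmin 1 is the calcium sensor of fast transmitter release. Its log2 values were 8.84, 9.01 and 10.09 in 0 ZT dark, 9.03, 9.34 and 9.55 in 3 ZT dark, and 9.46, 8.98 and 10.60 in 3 ZT light. At 1 pm they were 9.73, 10.01 and 11.09 in darkness and 9.48, 10.37 and 11.36 in light. Both 6 ZT conditions were above 0 ZT dark within every replica number, although the groups overlapped, and 6 ZT dark lay above 3 ZT dark without overlap. For 6 ZT dark against 0 ZT dark the ratios were 1.85, 2.01 and 1.99 (log2 fold change 0.96, SE 0.26, adjusted p 0.484), and for 6 ZT light against 0 ZT dark 1.56, 2.57 and 2.42 (1.09, SE 0.26, adjusted p 0.377). Light and darkness at 6 ZT were close, with a fitted difference of 0.13 and a 95% confidence interval from −0.44 to 0.69. *Syt1* had a single probe set. In whole retinas, more RNA per cell and more cells of a type cannot be told apart.

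*Syt9*, another sensor of fast release, followed the same hours, at 7.61, 8.15 and 8.57 in 0 ZT dark and 8.06, 8.69 and 9.16 in 6 ZT dark. The ratios were 1.36, 1.46 and 1.497 (log2 fold change 0.52, SE 0.14, adjusted p 0.477), and in 6 ZT dark against 3 ZT dark the fitted value was 0.68 (SE 0.14, adjusted p 0.863). *Syt3*, a synaptotagmin of high calcium affinity, was at 10.20, 11.28 and 10.25 in 6 ZT dark and 9.83, 10.01 and 9.74 in 6 ZT light, without overlap. Its log2 fold change was −0.72 (SE 0.26, adjusted p 0.534), and its dimmer probe set gave −0.47. Without 6 ZT dark replica 2 the fitted value was −0.41, and with 1 array left out it ran from −0.98 to −0.41. *Syt6* was highest in 3 ZT light within each replica number (6.50, 7.48 and 8.35, against 6.25, 6.84 and 7.85 in 3 ZT dark), a fitted 0.46 (SE 0.15, adjusted p 0.895).

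The synaptotagmins as a group had fitted values below 0 in 14 of 16 genes in 6 ZT light against 6 ZT dark (median −0.175), of which *Syt3* alone had an unadjusted p under 0.05. Over all genes 50.2% were above 0. In 9 of the 16 the ratio was below 1 in all 3 replicas, as in 13.4% of genes. Between 6 ZT dark and 0 ZT dark 10 of the 16 were above 0 (median 0.154), beside 47.4% of genes. The plot of fitted values at 6 ZT shows both comparisons, which share the 6 ZT dark arrays. A value of a 6 ZT dark array therefore enters them with opposite signs.

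**Figure D3:**
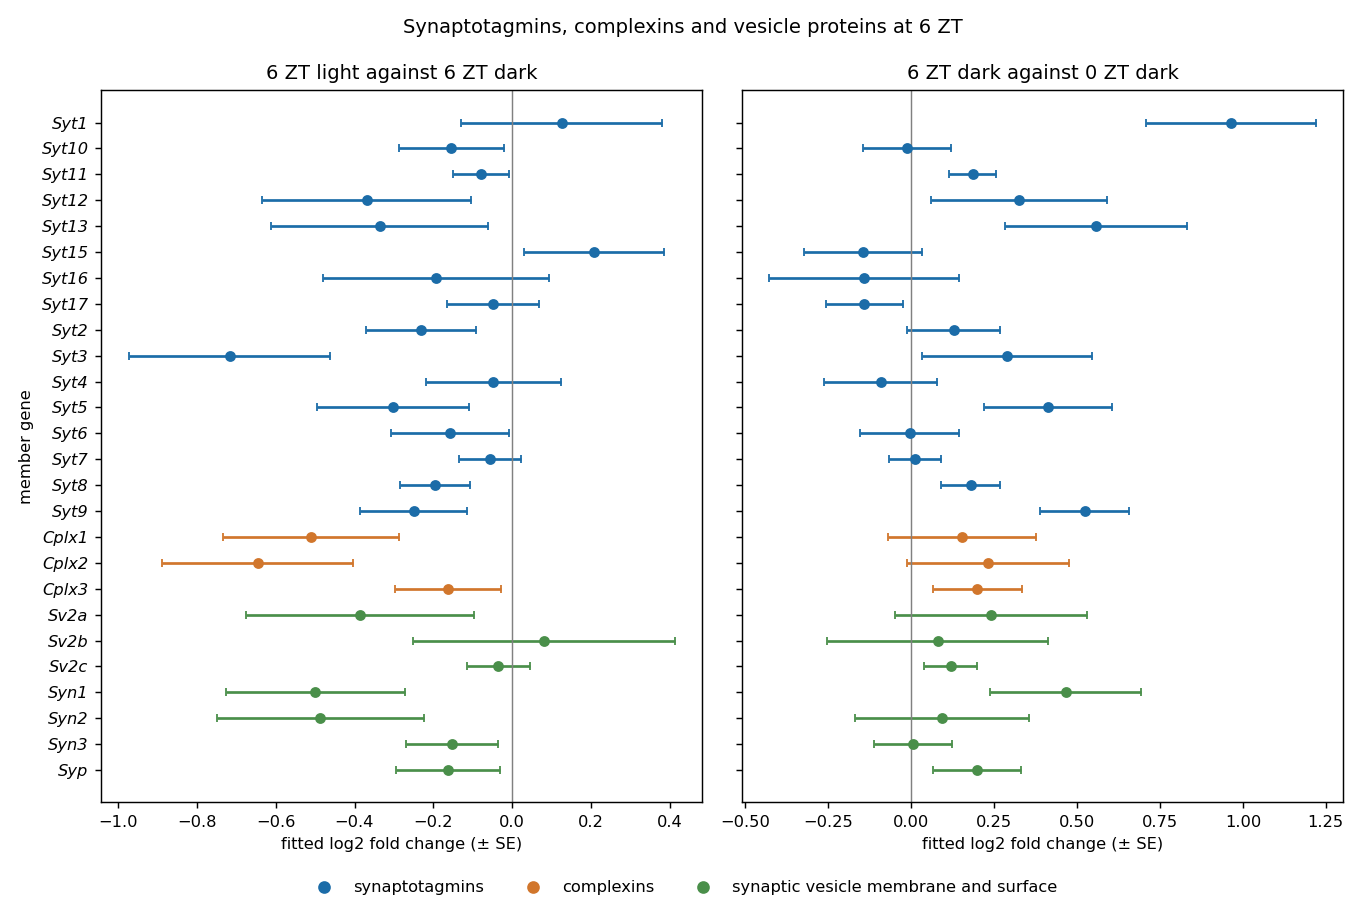
Fitted log2 fold change with its standard error (horizontal axis) for 16 synaptotagmins, 3 complexins and 7 genes of the vesicle membrane and surface (vertical axis), in light against darkness at 6 ZT (left) and in 6 ZT dark against 0 ZT dark (right). On the left, 23 of the 26 points lie below 0, the exceptions being *Syt1*, *Syt15* and *Sv2b*; on the right, *Syt1* lies farthest to the right.

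By their brightest probe sets, all 3 complexins measured were lower in light at 6 ZT in every replica, none of them past the adjusted test. *Cplx1*, of conventional synapses, was at 13.04, 13.25 and 13.05 in 6 ZT dark and 12.25, 12.77 and 12.79 in 6 ZT light, without overlap (log2 fold change −0.51, SE 0.22, adjusted p 0.576). Its dimmer probe set gave −0.57. *Cplx2*, also of conventional synapses, was at 9.04, 9.36 and 9.80 in 6 ZT dark and 8.25, 9.16 and 8.84 in 6 ZT light (−0.65, SE 0.24, adjusted p 0.550), the groups overlapped, and without 6 ZT light replica 3 the fitted value was −0.335. *Cplx3*, the complexin of ribbon synapses, had ratios of 0.91, 0.89 and 0.87 (−0.16, SE 0.13, adjusted p 0.720). Its dimmer probe set gave 0.02 (SE 0.15), with ratios of 0.96, 1.25 and 0.86.

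Of the 7 genes of the vesicle membrane and surface, 6 had fitted values below 0 in light at 6 ZT and all 7 were above 0 in 6 ZT dark against 0 ZT dark, with medians of −0.163 and 0.119. *Syn1* (synapsin 1, which clusters vesicles in the reserve pool) was at 10.39, 10.47 and 10.34 in 3 ZT dark, 10.80, 11.53 and 10.92 in 6 ZT dark and 10.14, 10.82 and 10.80 in 6 ZT light. The 2 dark groups did not overlap (log2 fold change 0.68, SE 0.23, unadjusted p 0.0123, adjusted p 0.863). Light at 6 ZT gave −0.50 (SE 0.23, adjusted p 0.585) for *Syn1* and −0.49 (SE 0.26, adjusted p 0.615) for *Syn2*. All 3 probe sets of *Syn2* and both of *Syn1* were lower in light in all 3 replicas.

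*Syp* (synaptophysin, a membrane protein of most synaptic vesicles) had a light effect of −0.16 at both hours (SE 0.13; adjusted p 0.895 at 3 ZT and 0.719 at 6 ZT). *Sv2b*, an SV2 glycoprotein of ribbon terminals, differed more between replicas than between conditions, with 11.79, 11.96 and 14.11 in 0 ZT dark and 11.50, 12.04 and 14.58 in 6 ZT dark. A dimmer probe set of *Sv2b* passed the ratio rule in 6 ZT dark against 0 ZT dark, with ratios of 1.83, 1.71 and 1.71 and a log2 fold change of 0.81 (SE 0.37, adjusted p 0.577), where the brightest gave 0.08 (SE 0.33). *Sv2a*, *Sv2c* and *Syn3* had no unadjusted p under 0.05 in the 6 comparisons.

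The clearest member by p was *Sgip1*, a protein of clathrin-mediated endocytosis that was in the list for its place in the vesicle cycle. Its log2 values were 12.41, 12.28 and 12.25 in 0 ZT dark, 12.52, 12.501 and 12.63 in 3 ZT dark, and 12.98, 12.42 and 12.70 in 3 ZT light. At 1 pm they were 12.53, 12.45 and 12.77 in darkness and 13.04, 12.87 and 13.08 in light. The 0 ZT dark arrays lay below all 12 others, and the 6 ZT light arrays lay above all those in darkness. In 6 ZT light against 0 ZT dark the ratios were 1.55, 1.51 and 1.77 (log2 fold change 0.68, SE 0.11, unadjusted p 6.8e-05, adjusted p 0.159), the lowest adjusted p of a member by its brightest probe set. Without 3 ZT light replica 2 in the fit its adjusted p was 0.0403. Against 6 ZT dark it was 0.41 (SE 0.11, adjusted p 0.508), and at 3 ZT the light effect was 0.15 (SE 0.11, adjusted p 0.895), where the dimmer probe set gave 0.49 (SE 0.15, adjusted p 0.895) with ratios of 2.11, 1.00 and 1.32. The dimmer probe set passed the ratio rule in 6 ZT light against 0 ZT dark, with ratios of 1.99, 2.06 and 1.71 and a log2 fold change of 0.94 (SE 0.15, adjusted p 0.159). *Snap91*, the neuronal clathrin adaptor AP180, met the symbol rule although it is no SNARE, and varied between 13.87 and 14.36 over all arrays.

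Promoter sequence is shown for 4 members, chosen after the motif matches and the fitted values were seen: *Syt1* and *Syn1* for the hour in darkness, *Syt6* for 3 ZT light and *Stxbp5* for 6 ZT light. The 250 bases before the transcript start are given from RefSeq (GRCr8), on the strand of the gene. Capitals mark the nuclear receptor motif AGGTCA, in either orientation, the cAMP response element TGACGTCA and the E-box CACGTG of the clock factors. They are *Syt1* at chr7:46244214-46244463 (minus strand), *Syn1* at chrX:3725495-3725744 (plus), *Syt6* at chr2:193781226-193781475 (plus) and *Stxbp5* at chr1:6155529-6155778 (minus).
Syt1: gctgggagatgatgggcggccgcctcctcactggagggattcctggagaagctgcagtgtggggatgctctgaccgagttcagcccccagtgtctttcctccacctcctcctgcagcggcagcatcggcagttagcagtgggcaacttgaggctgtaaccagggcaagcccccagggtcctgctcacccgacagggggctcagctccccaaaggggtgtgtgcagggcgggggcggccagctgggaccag
Syn1: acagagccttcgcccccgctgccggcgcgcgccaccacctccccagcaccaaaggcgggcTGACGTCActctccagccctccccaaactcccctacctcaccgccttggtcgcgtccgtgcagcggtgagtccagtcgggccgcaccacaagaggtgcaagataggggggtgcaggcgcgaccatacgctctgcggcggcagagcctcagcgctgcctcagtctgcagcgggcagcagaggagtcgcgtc
Syt6: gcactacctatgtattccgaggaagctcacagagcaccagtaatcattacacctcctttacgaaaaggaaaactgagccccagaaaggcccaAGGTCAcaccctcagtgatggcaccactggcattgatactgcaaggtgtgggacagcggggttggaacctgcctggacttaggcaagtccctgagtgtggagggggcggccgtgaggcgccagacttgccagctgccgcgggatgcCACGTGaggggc
Stxbp5: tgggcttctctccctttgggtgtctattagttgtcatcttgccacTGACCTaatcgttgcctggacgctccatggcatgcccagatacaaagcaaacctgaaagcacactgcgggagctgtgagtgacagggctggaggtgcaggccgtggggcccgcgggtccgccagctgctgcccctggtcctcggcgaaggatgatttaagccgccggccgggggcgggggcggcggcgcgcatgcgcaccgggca
The *Syt1* window held none of these letters, *Syn1* held a cAMP response element, *Syt6* a receptor motif and an E-box, and *Stxbp5* a receptor motif. Counted on both strands over 60 promoters of 55 members in the table, the receptor motif was present in 6 (10.0%, against 14.1% of all 33469 promoters), the cAMP response element in 2 (*Syn1* and *Vamp1*, 3.33% against 1.59%) and the E-box in 5 (8.33% against 5.59%). The direct repeat of that motif used by thyroid hormone receptors (DR4), which overlaps the single motif, was in 0 member promoters and 1 of all promoters. In all 12 of the 55 members held one of these motifs, so 3 of the 4 shown is no sample of the family. A match describes the letters and is no evidence of binding.

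Genes that belong to ribbon synapses were compared in number with their counterparts at conventional synapses. The ribbon list held *Stx3*, *Cplx3*, *Sv2b*, *Unc13b* and *Rims2*, and the conventional list *Stx1a*, *Cplx1*, *Cplx2*, *Syn1*, *Syn2*, *Sv2a*, *Rims1* and *Unc13a*. With light at 6 ZT, against 6 ZT dark, 0 of 8 conventional forms had a fitted value above 0 (median −0.437) and 3 of 5 ribbon forms did (median 0.080), where 50.2% of genes were above 0. Against 0 ZT dark, all 13 were above 0 in 6 ZT dark, where 47.4% of genes were. The medians were 0.193 for the conventional and 0.313 for the ribbon list. The dimmer probe set of *Stx3* was opposite to its brightest there in all 3 replicas. The 6 ZT light arrays against the same controls had all 5 ribbon forms above 0 (median 0.412), *Unc13b* and *Rims2* with an unadjusted p under 0.05, and 1 of 8 conventional forms was (median −0.168). Of all genes, 43.6% were above 0 there and 2.88% were higher at an unadjusted p under 0.05. In light against darkness at 3 ZT, 1 of 5 ribbon forms (median −0.092) and 4 of 8 conventional forms (median 0.002) were above 0. The share of all genes was 46.5%. The mean log2 level of the ribbon list in replicas 1 to 3 was 10.817, 10.347 and 11.698 in 3 ZT light. In 3 ZT dark it was 10.664, 10.745 and 11.523. It was thus lower in light only in replica 2, whose light array had the high *Actb* difference. In 3 ZT dark against 0 ZT dark the counts were 5 of 5 (median 0.166) and 1 of 8 (median −0.155), beside 45.9% of genes. None of the 5 was higher in all 3 replicas (6.95% of genes). The ribbon mean in 0 ZT dark was 10.272, 10.748 and 11.531. It was thus higher at 3 ZT only in replica 1, whose 0 ZT dark array had the high *Actb* difference. The first 2 comparisons given here share the 6 ZT dark arrays. The difference between the lists was not tested.

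Markers of cell types also differed in these comparisons. At 6 ZT all 7 ganglion cell markers measured were lower in light than in darkness (median −0.458), 6 of them in all 3 replicas. Of all genes, 50.2% were above 0 in this comparison, 13.4% were lower in all 3 replicas and 17.8% higher in all 3. The mean log2 level of the ganglion cell markers was 11.26 to 12.15 in light and 12.23 to 12.27 in darkness. For amacrine cells 7 of 8 markers were lower (median −0.091), 1 of them in all 3 replicas (13.4% of genes). All 9 lens genes were lower (median −1.716), 4 of them with an unadjusted p under 0.05 (2.86% of genes). Their mean levels were 9.10 to 12.32 in light and 12.40 to 13.18 in darkness. All 5 pigment epithelium markers were higher (median 0.480), 2 of them in all 3 replicas (17.8% of genes). Their mean level was 12.55 to 13.14 in light and 12.08 to 12.84 in darkness. In replica 2 it was 12.76 in light and 12.84 in darkness. Against 0 ZT dark, all 9 lens genes were higher in 6 ZT dark (median 1.141), 5 of 7 ganglion cell markers were higher (median 0.134) and all 5 pigment epithelium markers were lower (median −0.304). At 3 ZT all 4 bipolar cell markers were lower in light than in darkness (median −0.657), 2 with an unadjusted p under 0.05 (3.55% of genes). There 8 of 9 lens genes were higher (median 0.468). Between 6 ZT light and 0 ZT dark all 7 ganglion cell markers (median −0.310) and all 9 lens genes (median −0.682) were lower in light. From 3 to 6 ZT in light all 4 bipolar markers (median 0.668), all 5 Müller glia markers (0.286) and all 3 horizontal cell markers (0.330) were higher. Of these, 4, 3 and 2 had an unadjusted p under 0.05 (6.42% of genes). All 7 ganglion cell markers (−0.479) and all 9 lens genes (−0.727) were lower. From 3 to 6 ZT in darkness all 8 amacrine (0.289), 7 ganglion cell (0.244) and 9 lens markers (1.193) were higher and 4 of 5 pigment epithelium markers were lower (−0.465). Their part in the values of the release genes was not tested.

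The other genes of the release pathway, a list of 62 that covers active zone proteins, calcium channel subunits, SNARE recycling, endocytosis, vesicle transporters and Rab regulators, had 54 genes with a probe set. None passed the adjusted test. With light at 6 ZT 23 were above 0 (median −0.048, beside 50.2% of genes), with an unadjusted p under 0.05 for *Cacna1d*, *Cacnb2* and *Rab3gap2* on the higher side and *Ppfia4*, *Cacna1a* and *Rph3a* on the lower, 3 and 3 of 54 beside 4.85% and 2.86% of genes. For 6 ZT dark against 0 ZT dark, 44 of 54 were above 0 (median 0.106, beside 47.4% of genes), with *Ppfia4*, *Dnm3*, *Atp6v0a1* and *Doc2b* higher at an unadjusted p under 0.05 and *Rab3ip* lower, 4 and 1 of 54 beside 2.02% and 6.04% of genes. In 3 ZT light against 3 ZT dark 26 were above 0 (median −0.016) and 0 had an unadjusted p under 0.05.

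Later and earlier arrays of the same lighting were compared as well, with 0 members past the adjusted test (0.0% of genes). From 3 to 6 ZT in light, 8 members were higher at an unadjusted p under 0.05 (6.42% of genes) and 5 lower (2.87%). *Vamp2* was among the former, and its ratio of 3.54 in replica 2 came from the low array named above, 3 ZT light replica 2. *Rims2* and *Unc13b*, also among the higher ones, were at 9.72 and 7.52 on that array. On the other arrays of replica 2 they were at 10.11 to 10.77 and 8.49 to 9.21. The counts at an unadjusted p were not repeated without that array. *Rab27b* was among the lower ones, with ratios of 0.22, 0.63 and 0.48 (log2 fold change −1.31, SE 0.28, adjusted p 0.458). From 3 to 6 ZT in darkness, 6 members were higher (1.81% of genes) and 4 lower (2.94%), with a median of 0.053. *Syt5*, of dense-core vesicles, was among the higher ones at 0.53 (SE 0.19, adjusted p 0.863).

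Probe sets of the same gene differed in part. At 6 ZT, in light against darkness, 28 of the 35 further probe sets had the sign of the brightest one, 11 of them in all 3 replicas, and 0 were opposite in all 3. Between 6 ZT dark and 0 ZT dark 22 of 35 had the same sign, 3 were the same in all 3 replicas and 4 were opposite in all 3 (*Rab27a*, *Snap29*, *Stx12* and *Stx3*). In that comparison 30 of the 35 further probe sets were above 0 (85.7%, median 0.182), and so were 68.7% of the 6609 further probe sets of all genes (median 0.069). The plot of the brightest against the other probe sets shows both comparisons.

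**Figure D4:**
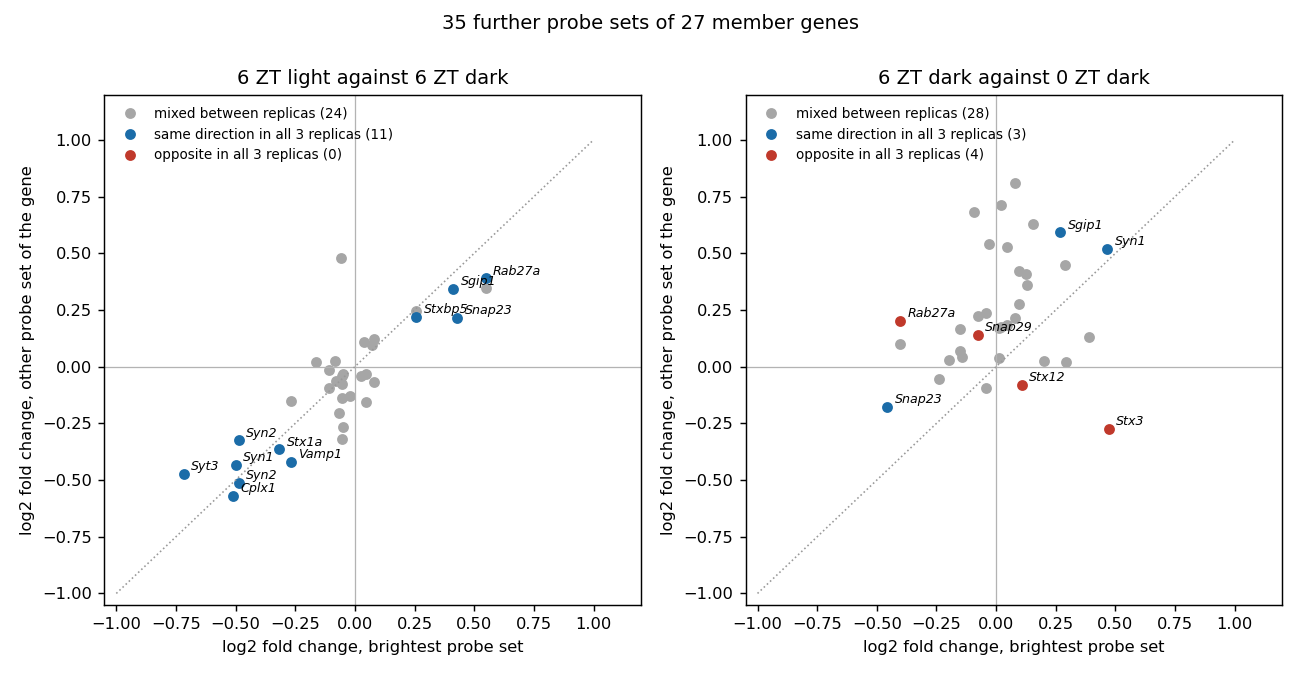
Fitted log2 fold change of the brightest probe set of a gene (horizontal axis) and of each further probe set (vertical axis) for 27 member genes, in light against darkness at 6 ZT (left) and 6 ZT dark against 0 ZT dark (right); colours mark whether both moved the same way in all 3 replicas, and the dotted line marks equal values. On the left 11 points are the same in all 3 replicas and 0 opposite, and on the right 3 are the same and 4 opposite.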

How the data were processed

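Retinal RNA of 15 samples was measured on Affymetrix RAT230_2 arrays. The authors summarised the scanned arrays with the Robust Multi-array Average, and the log2 values were used as deposited, without further normalization. Which arrays were normalized together and the software are not given in the sources used here. Gene symbols came from the platform's annotation, and no member's symbol changed when checked against RefSeq. Members and gene lists were chosen with earlier results of these data known.

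limma 3.58.1 (R 4.3.3) was fitted to all 31042 probe sets that are not controls, with condition and replica number as terms, and p-values were adjusted by Benjamini-Hochberg over all of them at a threshold of 0.05. Standard errors come from this fit, so n = 3 per condition. Ratios were taken within a replica number. The numbers pair the samples by the data: in 30 same-number pairs the deviations from the condition means correlated at 0.241 to 0.797, and all 15 arrays were closest to an array of their own number. Array medians also group by number, so processing may be the source. Genes named are the 5 members with the lowest p per direction and comparison, those past the ratio rule, and the members known from retinal synapses. The script was tested on simulated data. The number of arrays limits the precision. Array quality weights used statmod 1.5.0, and figures matplotlib 3.10.9. Alternatives were no replicate block, 2 further normalizations (quantile, cyclic loess), removal of dim probe sets, array weights, only the compared conditions in the fit, every probe set, stricter ratios, and arrays left out.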

Additional observations from a re-analysis of the deposited data

Results flagged for a closer look

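The ratios of light to darkness lay on opposite sides of 1 at the 2 hours in every replica for 3 of the 67 members (4.48%). The same held for 2.42% of all genes. For *Cplx2* the ratios of light to darkness were 1.04, 1.05 and 1.59 at 3 ZT and 0.58, 0.88 and 0.51 at 6 ZT, and the light effect at 6 ZT minus that at 3 ZT was −0.91 on the log2 scale (SE 0.34, unadjusted p 0.0234). For *Syt6* the ratios were 1.19, 1.56 and 1.41 at 3 ZT and 0.99, 0.92 and 0.79 at 6 ZT, a difference of −0.62 (SE 0.21, unadjusted p 0.0138). For *Vamp3* they were 0.99, 0.84 and 0.94 at 3 ZT and 1.23, 1.15 and 1.08 at 6 ZT, a difference of 0.32 (SE 0.10, unadjusted p 0.00854). All 3 had an adjusted p of 0.776 for the difference itself in limma, so none passed.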

How the results depend on the processing

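Of 813 alternative values for 37 gene results, 801 kept their direction and side of the threshold, 12 passed the threshold and 0 reversed. The 37 were chosen for an unadjusted p under 0.05 in the limma fit above, where none passed the adjusted test. Keeping their side therefore meant staying above the threshold, and the choice by p favours an unchanged direction. These counts do not measure how firm the results are. With array quality weights, 10 members were called in 6 ZT light against 6 ZT dark (*Cplx2*, *Rab27a*, *Rims2*, *Sgip1*, *Snap23*, *Stx16*, *Stxbp5*, *Syn3*, *Syt3* and *Unc13b*) and 4 in 6 ZT light against 0 ZT dark (*Rims2*, *Sgip1*, *Syt1* and *Unc13b*), where the weight of 6 ZT light replica 3 was 7.45. Leaving out 1 array gave 0 to 1 calls in the latter comparison (*Sgip1*, without 3 ZT light replicate 2). The shares of all genes called with these weights or without an array are not given here. These counts therefore cannot be read as particular to the members. Without the replicate block, with ratios to the mean of the compared group, 0 members passed the ratio rule in 3 ZT light against 3 ZT dark, 6 ZT dark, 3 ZT light and 6 ZT light against 0 ZT dark, and 1 (*Syt3*) in 6 ZT light against 6 ZT dark. The pairing changed no call of the adjusted test. At ratios of 2 or 0.5, 0 passed in 3 ZT light against 3 ZT dark and in 6 ZT dark and 6 ZT light against 0 ZT dark, and after quantile normalization 0 in the last. Counting every probe set, 2 members passed in 6 ZT dark (*Sv2b* and *Syt1*) and 2 in 6 ZT light (*Sgip1* and *Unc13b*) against 0 ZT dark. Leaving out 1 array moved the ratio counts between 0 and 1 in 6 ZT light against 6 ZT dark, 1 and 2 in 6 ZT dark and in 3 ZT light against 0 ZT dark, and 1 and 3 in 6 ZT light against 0 ZT dark. Its replica number was dropped from the rule, so only the 2 remaining ratios had to pass. These counts could therefore stay or rise but not fall, and they do not measure how firm the ratio calls are. The median in 6 ZT light against 6 ZT dark was −0.094 after quantile and −0.092 after cyclic loess normalization. In 6 ZT dark against 0 ZT dark it was 0.078 and 0.081 by these, 0.075 without dim probe sets, 0.113 over every probe set and 0.016 to 0.086 with 1 array left out. In 6 ZT light against 0 ZT dark it was 0.029 over every probe set. The cause was not tested.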
